A study of Mus musculus with 6 samples.

Results

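The axoneme is the microtubule shaft of the sperm tail, and the genes described here are the 72 of 32285 measured features whose symbol starts with Cfap, Dnah, Dnaic, Dnali, Dnal1, Dnal4, Rsph, Tekt or Dnaaf. They were chosen by name, with earlier results of these data known, and no measured value entered the rule. They comprise dynein heavy chains (Dnah), dynein intermediate and light chains (Dnaic, Dnali, Dnal), radial spoke proteins (Rsph), tektins (Tekt), dynein assembly factors (Dnaaf) and cilia- and flagella-associated proteins (Cfap). Of the 72, 68 reached a mean of at least 20 counts per 1000000 (CPM) in a stage of the germ line, and Dnah5, Dnah11, Dnah2os and Rsph4a did not. CPM is the number of unique molecular identifiers (UMIs, which count captured transcripts) of a gene per 1000000 UMIs of a class of cells. It is not scaled by transcript length, so levels of different genes are not compared as amounts.

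In a motile cilium or sperm tail, outer and inner dynein arms walk along the neighbouring microtubule doublet and bend the shaft. Radial spokes and the central apparatus pass control signals to the arms, and tektins and several CFAP proteins line the inside of the doublets. Assembly factors work in the cytoplasm, where the arms are folded and preassembled. In the testis the tail is built in spermatids, many of its genes are already transcribed in meiotic spermatocytes, and transcription stops as the spermatid nucleus is compacted.

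From 6 males of the inbred C57BL/6J strain, testes were dissociated and profiled by droplet 3' single-cell RNA sequencing, with both testes of a mouse in 1 library (n = 3 per group). Control mice drank normal water. In the nicotine group the water held 200 µg/mL nicotine over 8 weeks, starting at 3 weeks of age, and all mice were 11 weeks old. The labels name no further allele or agent and no batch. The libraries held 67853893 to 88329607 UMIs, and 61945 cells were kept, 9848 to 11008 per library.

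Cells were clustered without the 72 genes and without the other axoneme and related genes used below. From markers, 9 clusters of well-covered germ cells formed a series of stage classes. They were 1 early spermatocyte-like class (782 cells), late spermatocyte-like classes 1 and 2 (1506 and 2952 cells), round spermatid-like classes 1 to 3 (2372, 2719 and 2310 cells) and elongating spermatid-like classes 1 to 3 (1929, 5798 and 3311 cells). Germ cell clusters of low UMI number were kept apart. Late spermatocyte-like class 1 had a median of 5344 UMIs per cell, against 11894.5 in the early class and 15645 in late class 2. Its place in the series is uncertain: finer clustering gave it markers of both early and late spermatocytes, and its late spermatocyte markers summed to 7246 to 8571 CPM, below the early class (9365 to 12364 CPM). Control replicate 2 and nicotine replicate 2 stood apart from the other libraries of their group, with a chi-square per degree of freedom of 8.02 to 15.3 over genes in the pairs with them and 3.59 and 2.64 in the pairs without. Leydig-like (androgen-producing), Sertoli-like (germ cell-supporting), stromal-like and macrophage-like cells served as the somatic comparison. No cluster could be named for spermatogonia, myoid or endothelial cells. Between 172 and 210 barcodes per library also occurred in another library.

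Promoter windows of 3 members with different highest stages show what stands around the RefSeq starts of these genes. RefSeq windows on GRCm38.p6, from 250 bases before to 50 bases after a gene's start, matched 59 of the 72 members by symbol (66 windows). The half-site of the X-box, the motif of RFX transcription factors, which regulate ciliary genes, was searched as GTTGCC on both strands. It stood in 24 of the 66 windows (36.4%) and in 12.5% of all 32851 windows. Dnaic2 (chr11:114727169-114727468, plus strand) and Tekt1 (chr11:72361833-72362132, minus strand), highest by CPM in late spermatocyte-like class 2 and round spermatid-like class 1, are printed with the half-site in capitals. Tekt5 (chr16:10395406-10395705, minus strand), highest in round spermatid-like class 3, has no match in its window.

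Dnaic2: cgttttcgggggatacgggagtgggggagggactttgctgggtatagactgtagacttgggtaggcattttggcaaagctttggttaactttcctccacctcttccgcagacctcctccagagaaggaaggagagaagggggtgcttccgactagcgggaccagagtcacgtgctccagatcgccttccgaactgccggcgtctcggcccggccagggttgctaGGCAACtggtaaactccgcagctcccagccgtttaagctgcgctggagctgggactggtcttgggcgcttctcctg

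Tekt1: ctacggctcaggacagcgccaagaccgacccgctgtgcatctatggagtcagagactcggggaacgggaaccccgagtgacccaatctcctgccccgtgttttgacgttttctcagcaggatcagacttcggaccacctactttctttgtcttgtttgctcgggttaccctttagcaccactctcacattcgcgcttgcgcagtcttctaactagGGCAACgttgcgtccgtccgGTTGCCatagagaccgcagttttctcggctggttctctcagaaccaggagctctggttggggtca

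Tekt5: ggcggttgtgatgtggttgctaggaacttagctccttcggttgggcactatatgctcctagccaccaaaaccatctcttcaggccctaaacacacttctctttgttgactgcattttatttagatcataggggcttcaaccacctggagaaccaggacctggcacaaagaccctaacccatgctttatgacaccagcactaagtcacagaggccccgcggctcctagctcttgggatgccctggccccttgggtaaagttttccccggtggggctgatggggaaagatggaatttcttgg

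The Dnaic2 window holds 1 half-site, starting 26 bases before the RefSeq start, and the Tekt1 window holds 2, starting 35 and 15 bases before it. By GENCODE, Tekt1 runs from 72344722 to 72362442 on the minus strand, so its whole window lies within that span. Windows of 3 of the 5 tektins hold the half-site. The MYB core CAACTG, which can overlap the half-site read as GGCAAC, stood in 27.3% of member windows and 13.7% of all windows. The GC box GGGCGG stood in 47.0% and 35.7%, and CCAAT in 36.4% and 37.4%. The TATA box TATAAA stood in 4.55% and 13.6%, and the cAMP response element TGACGTCA in 1.52% and 1.79%. All were searched on both strands, and no binding was measured.

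By CPM, 49 of the 68 had their highest mean in a spermatocyte-like class, 18 in a round spermatid-like class and 1, Cfap69, in the last elongating class. Over all 10474 genes that reached the same level, the early and both late spermatocyte-like classes were the highest for 23.7%, 27.2% and 12.7%, so that most genes of the data were highest in these classes. Among the members, these classes were the highest for 3, 29 and 17. The scale set this split: in UMIs per cell the early class was the highest for 23 members, late class 1 for 5, late class 2 for 15 and round spermatid-like classes 1 to 3 for 15, 7 and 3. By CPM the highest stage was the same in all 6 mice for 50 of the 68. These levels describe the stage axis and carry no test.

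**Figure D1:**
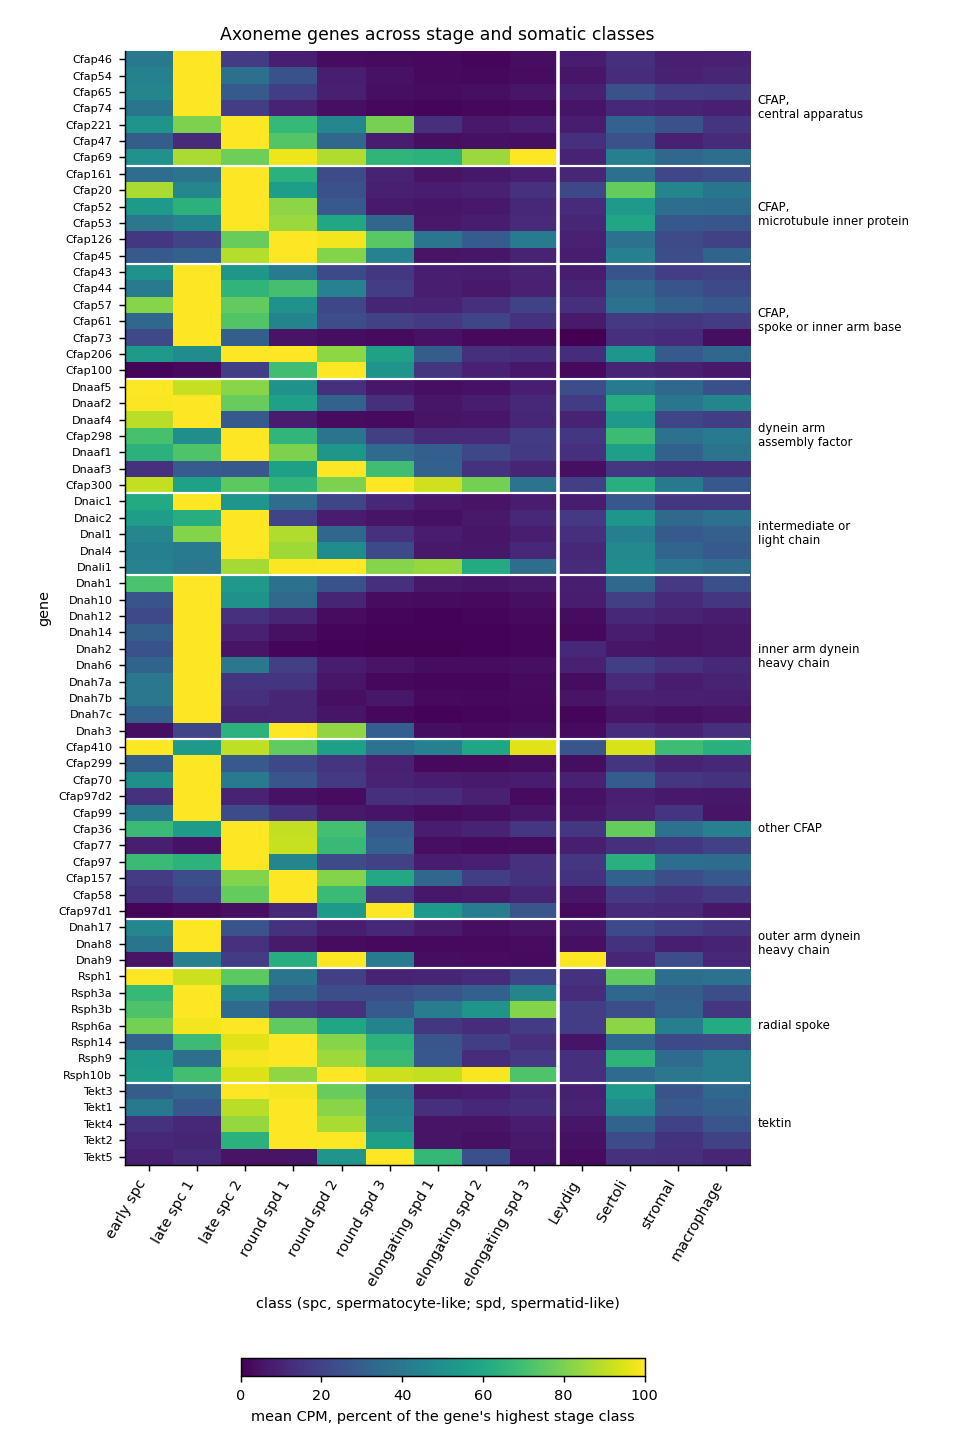
Mean CPM of the members (rows) in the 9 stage classes and the somatic classes (columns), as percent of the gene's highest stage class, with values above 100 drawn as 100. Most rows are brightest in the spermatocyte-like or round spermatid-like columns and dark in the elongating ones.

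Among the outer arm heavy chains, the motor subunits of the outer row, Dnah8 (chromosome 17, 30624354 to 30877365, plus strand) had its highest mean, 2415 ± 131 CPM (SD, n = 6), in late spermatocyte-like class 1. Its CPM in late spermatocyte-like class 1 was 2308, 2523 and 2622 in control and 2382, 2285 and 2369 in nicotine mice. It was 868 to 1074 in the early class, 312 to 414 in late class 2 and 54.2 to 68.8 in round spermatid-like class 3, and these 4 classes did not overlap. In UMIs per cell the order of the first pair differs: Dnah8 stood at 13.8 to 24.7 in the early class and 13.6 to 17.4 in late class 1, which overlap. Dnah17, a further outer arm chain of the testis, had its highest mean in the same class, 335 ± 8.16 CPM (SD, n = 6). Dnah9 followed another course and was highest in round spermatid-like class 2, at 46.1 ± 2.84 CPM.

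By CPM the inner arm heavy chains shared the class of Dnah8. Of 10, 9 were highest in late spermatocyte-like class 1, and Dnah14 stood there at 1385 to 1607 CPM. Dnah7a, Dnah7b and Dnah7c reached means of 752 ± 49.9 CPM, 689 ± 41.5 CPM and 1074 ± 67.4 CPM (SD, n = 6). They are near-identical copies, so the split of reads between them is uncertain. Dnah3, singled out after its values were seen, was the exception, with 179 to 202 CPM in round spermatid-like class 1. By CPM the 3 members that fell most were inner arm chains: in the last elongating class Dnah2 stood at 0.0127, Dnah14 at 0.0176 and Dnah7c at 0.0206 of its highest mean CPM. In UMIs per cell the 3 that fell most were Dnah9, Cfap77 and Dnah3, at 0.00659, 0.00771 and 0.00797.

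By CPM long genes were frequent in late spermatocyte-like class 1. Of the 18 members that span over 100 kb, 14 were highest there, and of the 50 shorter members 15 were. Over all genes the shares were 46.0% and 24.1%. The sources used here do not say whether intronic reads were counted or strand was used, and the part of either in these levels was not tested. Dnah8 and Dnah14 overlap genes on the other strand (among them Glo1 and Lbr).

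Intermediate and light chains, which tether and regulate the heavy chains, were spread over more stages. Dnaic1, an outer arm intermediate chain, stood at 182 to 222 CPM in late spermatocyte-like class 1, above every value of the early class (114 to 133 CPM) and of late class 2 (102 to 108 CPM). Dnaic2, its partner, was highest in late class 2, at 98.0 ± 12.6 CPM (SD, n = 6). Dnali1, an inner arm light chain, was highest in round spermatid-like class 2, at 319.8 ± 14.6 CPM.

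Radial spoke genes include Rsph1, a spoke head protein (chromosome 17, 31255019 to 31277383, minus strand). Its CPM in early spermatocyte-like cells was 4226, 4251 and 3858 in control and 3478, 3805 and 3788 in nicotine mice. Late spermatocyte-like class 1 overlapped that (3194 to 4074 CPM), and round spermatid-like class 1 lay below it (1452 to 1557 CPM). Rsph9, a further spoke head protein, was highest in round spermatid-like class 1, at 260.5 ± 17.1 CPM (SD, n = 6). Rsph6a, a testis form of the spoke head, was highest in late spermatocyte-like class 2, at 111 ± 8.24 CPM.

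Tektins, filament proteins inside the doublets, were highest later. Of 5, 4 were highest in a round spermatid-like class, and Tekt3 in late spermatocyte-like class 2. Tekt4 (chromosome 17, 25454615 to 25476602, plus strand) went from 58.2 to 84.2 CPM in late spermatocyte-like class 1 to 523 to 576 CPM in class 2. In round spermatid-like class 1 it stood at 630.2, 668 and 637 CPM in control and 628, 681 and 668 CPM in nicotine mice, and in the first elongating class at 26.0 to 39.3 CPM. Tekt5 (chromosome 16, 10357948 to 10395490, minus strand) stood at 8.86 to 11.5 CPM in round spermatid-like class 1, 98.6 to 115 CPM in class 2 and 192 to 219 CPM in class 3, and neighbouring classes did not overlap.

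Assembly factors were highest in a spermatocyte-like class for 5 of 7. Cfap298 and Dnaaf1, both needed to preassemble dynein arms, were highest in late spermatocyte-like class 2, at 938 ± 25.6 CPM and 644 ± 31.7 CPM (SD, n = 6). Dnaaf3 was highest in round spermatid-like class 2, at 331 ± 18.1 CPM. Of 7 CFAP genes of the central apparatus, 6 were highest in a late spermatocyte-like class. Cfap65, one of these, stood at 488 ± 23.5 CPM in late class 1. Of 6 CFAP genes of inner microtubule proteins, 4 were highest in a late spermatocyte-like class, and Cfap45 and Cfap126 in round spermatid-like class 1. Cfap97d1 (chromosome 11, 101984279 to 101992264, plus strand) was among the latest, at 53.6 to 62.1 CPM in round spermatid-like class 1 and 497 to 571 CPM in class 3.

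**Figure D2:**
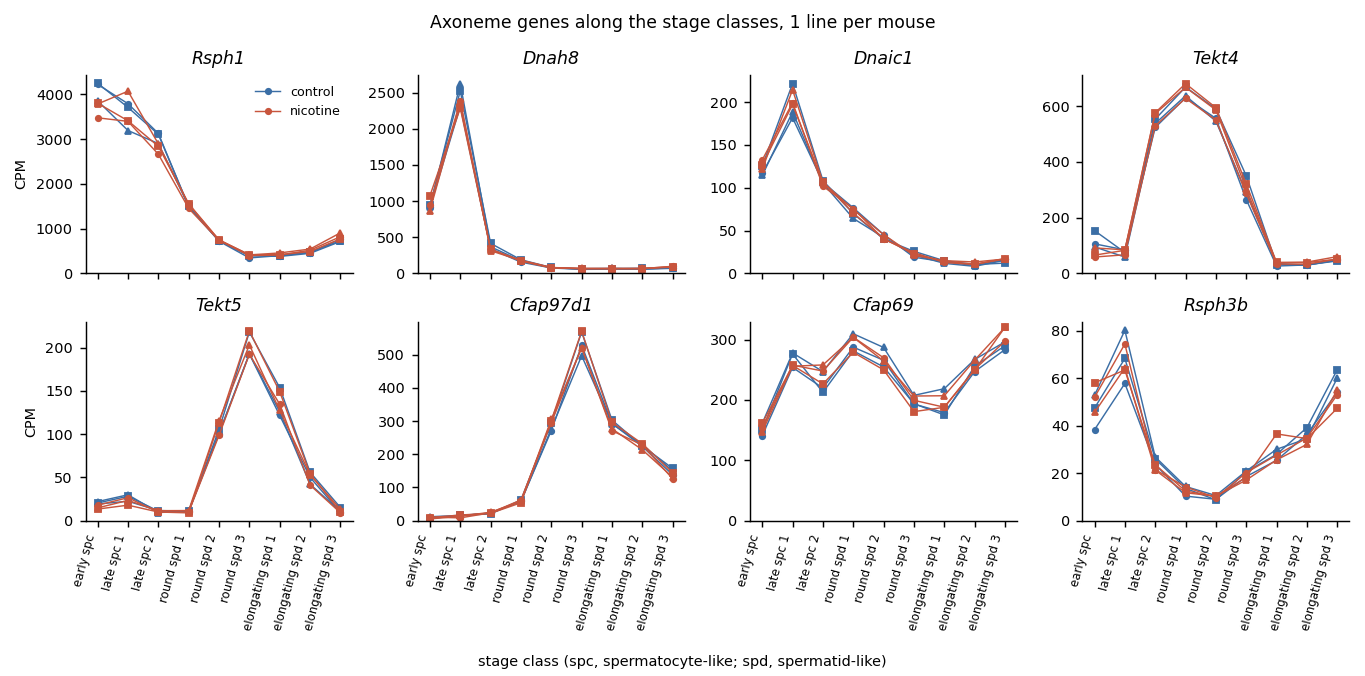
CPM of 8 members along the 9 stage classes in order, 1 line per mouse coloured by group, each panel with its own axis from 0. Rsph1, Dnah8 and Dnaic1 are highest in spermatocyte-like classes, Tekt4, Tekt5 and Cfap97d1 in round spermatid-like classes, and Cfap69 in the last class.

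Onset was read as the first stage that reached 25% of the gene's highest mean CPM with every mouse above every Leydig-like value. By that rule 52 of the 68 members were on in the early spermatocyte-like class, 12 came on in a late spermatocyte-like class, Cfap100 in round spermatid-like class 1, and Tekt5 and Cfap97d1 in class 2. Dnah9 had no onset. Of all genes, 39.9% were on in the first class and 20.9% had no onset by the rule. Both shares are over all 10474 genes that reached 20 CPM, with or without an onset. The count depended on the clustering. With finer clusters 18 members were on in the first stage, 14 in the next, and 15 and 7 in the following ones. Dnaic2 is a case: on in the early class by the rule, it stood in the finer early cluster at 8.57 ± 2.13 CPM in control and 11.5 ± 4.16 CPM in nicotine mice (SD, n = 3), below 25% of its highest mean. Finer clustering also split the Leydig-like cells of the onset rule, into clusters with medians of 7194.5 and 914.5 UMIs per cell. With it 8 members had no onset, and the part of each change in the lower count was not tested. The count also depended on the threshold, with 25 on in the first class at 50% of the highest mean.

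Other axoneme genes, with related transport and regulator genes, from lists that the symbol rule does not cover, were counted by the same stages. Of 15 intraflagellar transport genes, which carry tail parts, 14 were highest in a spermatocyte-like class. So were 8 of 9 genes of the nexin-dynein regulatory complex and all 10 genes listed with assembly factors of other names, Tctn1 among them. Of 8 further microtubule inner proteins, 5 were highest in a round spermatid-like class. Among transcription regulators, Mybl1 stood at 112 ± 8.56 CPM in early spermatocyte-like cells and 23.7 ± 3.51 CPM in late class 2. Foxj1, a regulator of motile cilia, went from 3.76 ± 1.70 CPM in late spermatocyte-like class 1 to 98.1 ± 5.35 CPM in class 2, and Rfx2 stood at 170.2 ± 13.1 CPM and 149.6 ± 7.15 CPM. Crem, a regulator of spermatid genes, stood at 538 ± 35.6 CPM in round spermatid-like class 1 (all SD, n = 6).

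Members were low in late spermatids on either scale, as most genes were. The median member stood in the last elongating class at 0.0942 of its highest mean CPM, and the median of all genes at 0.103. There, 59 of the 68 (86.8%) stood below 25%, against 77.3% of all genes. In UMIs per cell the median member stood at 0.0273 of its highest stage, and 67 of 68 stood below 25%. The members' summed UMIs per cell were 301 ± 36.0 in late spermatocyte-like class 2, and 39.8 ± 2.84, 24.4 ± 1.49 and 16.5 ± 1.14 in elongating classes 1 to 3 (SD, n = 6).

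These late values met those of somatic cells, in which free RNA in the droplets can give UMIs of genes the cell does not express. Leydig-, Sertoli-, stromal- and macrophage-like cells held 17.1, 11.0, 12.2 and 12.7 member UMIs per cell as medians over the mice. Macrophage-like cells of nicotine replicate 3 had 37.1 (52 cells), and those of the other 5 mice 10.6 to 13.4. Rsph1 made up 21.2%, 28.0%, 23.2% and 21.9% of the member UMIs in these 4 classes. Free RNA was set by tracer genes of late spermatids (7, such as Prm1) and of round spermatids (7, such as Acrv1): a member's UMIs in a somatic class were divided by those it would have if it were carried in like the tracers. The median ratio over the members was 3.87 in Leydig-, 3.06 in Sertoli-, 1.52 in stromal- and 4.14 in macrophage-like cells with the late tracer, and 2.76, 1.98, 2.09 and 2.01 with the round one. Every mouse was over 2 times the late tracer for 30 members in Leydig-, 24 in Sertoli-, 0 in stromal- and 1 in macrophage-like cells. With the round tracer these counts were 18, 19, 9 and 1. The level of the counted members is thus not that of the tracers. How much of the somatic level is free RNA was not tested. Rsph1 stood at 2.77 to 3.60 UMIs per Sertoli-like cell and 3.39 to 4.18 per cell of the last elongating class, against 59.6 to 114 in early spermatocyte-like cells. On the share scale the order differs: Rsph1 stood at 343 to 417 CPM in round spermatid-like class 3 and 711 to 905 CPM in the last elongating class, while its UMIs per cell were 8.45 to 9.47 and 3.39 to 4.18.

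**Figure D3:**
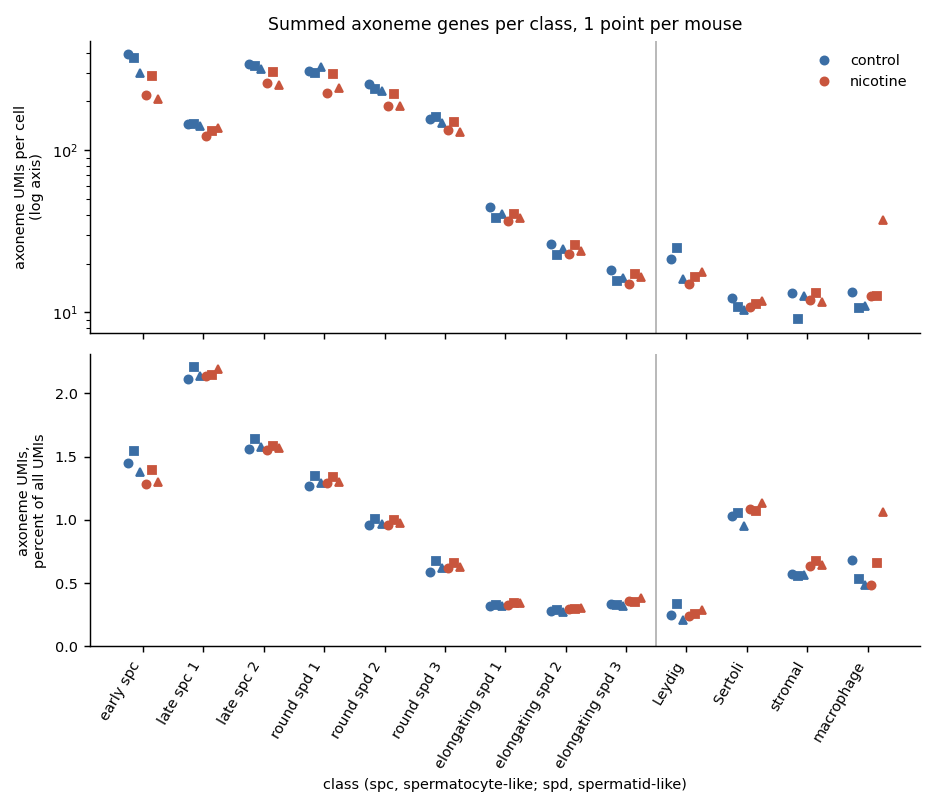
Summed UMIs of the members per cell (top, log axis) and as percent of all UMIs (bottom, axis from 0) in each class, 1 point per mouse. The per-cell sum falls through the elongating classes to the range of the somatic classes.

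Against the somatic level, members dropped out stage by stage. In UMIs per cell, 67 of the 68 had every mouse above every mouse of all 4 somatic classes in round spermatid-like class 1, 52 in class 3, 20 in the first elongating class, 11 in the second and 5 in the last. These 5 were Cfap69, Cfap126, Cfap97d1, Rsph3a and Rsph3b. The counts depend on the somatic classes used: against Leydig-like cells alone they were 67, 54, 26, 17 and 9. The comparison with all 4 classes includes the macrophage-like cells of nicotine replicate 3, which had 37.1 member UMIs per cell. Cfap69, a central apparatus protein (chromosome 5, 5579278 to 5664239, minus strand), stood in the last class at 1.23 to 1.58 UMIs per cell over the 6 mice. Its highest somatic value was 0.731, in macrophage-like cells of nicotine replicate 3. By CPM it stood at 284 to 321 in the last class and 279 to 309.8 in round spermatid-like class 1, which overlap.

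Rsph3a and Rsph3b are near-identical copies of a spoke stalk gene on chromosome 17, and reads may be split between them. Rsph3b stood at 57.8 to 80.1 CPM in late spermatocyte-like class 1, 9.71 ± 0.747 CPM (SD, n = 6) in round spermatid-like class 2 and 47.3 to 63.6 CPM in the last elongating class. The middle class lay below both others. In UMIs per cell it was 0.187 to 0.253 in round spermatid-like class 2 and 0.220 to 0.305 in the last class, which overlap. Cfap126 and Cfap97d1 stood at 0.596 to 0.808 and 0.521 to 0.758 UMIs per cell in the last class. Cfap410, at 0.954 of its highest CPM there, was not above every somatic value.

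In Leydig-like cells 3 members stood apart from the other somatic classes. Dnah9 (chromosome 11, 65831282 to 66168551, minus strand) had 0.356, 0.379 and 0.437 UMIs per Leydig-like cell in control and 0.319, 0.273 and 0.381 in nicotine mice. Its highest value in a mouse of the other somatic classes was 0.0448. In CPM its Leydig-like mean was 1.10 times that of its highest germ cell stage. Dnah2 (chromosome 11, 69420809 to 69549110, minus strand) had 0.318 to 0.712 UMIs per Leydig-like cell and at most 0.173 in the other somatic classes. Dnah2os, antisense to Dnah2, had 0.0423 to 0.159 and at most 0.00943, and reads of these genes cannot be told apart without strand. Only for these 3 of the 72 did every Leydig-like mouse lie above every mouse of the other somatic classes. The 58 members with at least 0.05 UMIs per Leydig-like cell had a median of 1.46 times the mean of the other 3 classes.

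**Figure D4:**
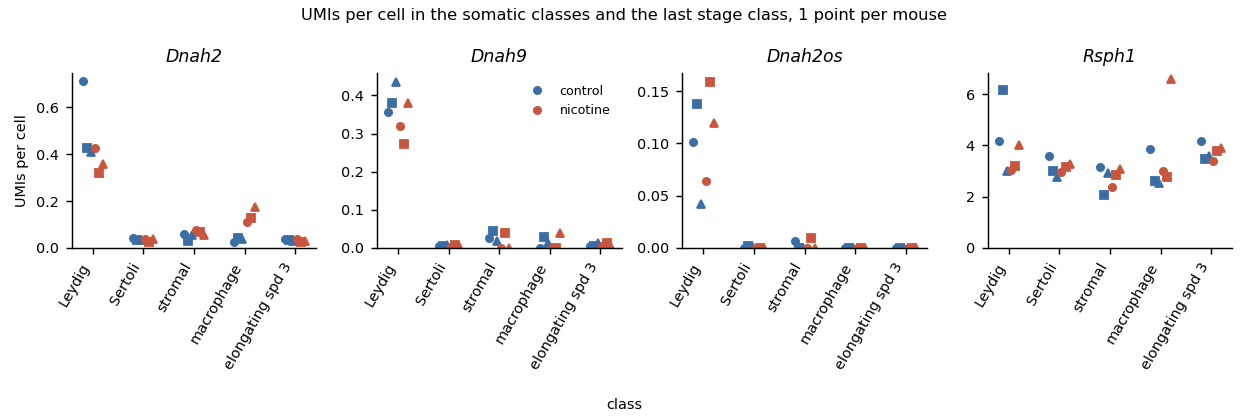
UMIs per cell of selected members in the 4 somatic classes and the last elongating class, 1 point per mouse, axes from 0. Leydig-like cells stand above the other somatic classes for Dnah2, Dnah9 and Dnah2os.

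Control and nicotine mice were then compared within each class. In early spermatocyte-like cells 9 of 66 members tested were lower after nicotine and none was higher, by edgeR's quasi-likelihood test on UMI counts summed per mouse (Benjamini-Hochberg adjusted p under 0.05). That is 13.6% of the members, and over all 11610 genes tested 5.46% were called lower. Calls in the higher direction were few over all genes too, 177 of the 11610. The 9 were the arm subunits Dnaic2, Dnah10 and Dnali1, the spoke head protein Rsph6a, the assembly factor Dnaaf1, the inner microtubule proteins Cfap45 and Cfap53, and the tektins Tekt3 and Tekt4. The median log2 change (nicotine minus control) was -0.19 over the 66 and 0.04 over all genes. Leaving out nicotine replicate 1 left no member called, and leaving out control replicate 1 or nicotine replicate 2 left 2. Leaving out control replicate 2 or nicotine replicate 3 left 5, and leaving out control replicate 3 raised the count to 21. These counts are over all members tested, and without nicotine replicate 3 the count includes 4 of the 9.

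Dnaic2 had 65.9, 89.9 and 57.0 CPM in control and 39.1, 39.9 and 37.9 CPM in nicotine mice (log2 change -0.97 ± 0.18 SE, edgeR adjusted p 0.0209). Tekt4 had 106, 153 and 94.7 CPM in control and 58.3, 65.1 and 91.1 CPM in nicotine mice (log2 change -0.83 ± 0.21 SE, edgeR adjusted p 0.0373). Dnaaf1 stood at 476 ± 70.4 and 349.9 ± 35.5 CPM (SD, n = 3; log2 change -0.54 ± 0.14 SE, edgeR adjusted p 0.0354). The other 6 had log2 changes of -0.40 to -0.84. In all 9 the highest nicotine value was under the lowest control value. Groups did not overlap for 39.4% of the 66 members and for 30.2% of all genes.

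The class differed in makeup between the groups. None of the 9 members was called among the earlier cells of the class, where 5 stayed lower after nicotine and 4 changed sign. Finer clustering put 67.1% to 76.1% of the class in an early spermatocyte-like cluster in control and 85.6% to 87.9% in nicotine mice, and 16.9% to 28.2% and 10.2% to 10.9% in a late spermatocyte-like one. Early spermatocyte markers (13, none at 0) summed to 2840.5 to 3575 CPM in control and 4296 to 4433 CPM in nicotine mice, and 3 of the 13 were called higher. Late spermatocyte markers (13, none at 0) summed to 10633 to 12364 and 9365 to 10211 CPM, and 5 were called lower. Sums of 12 elongating spermatid markers overlapped (2007 to 3877 and 2897 to 4169.9 CPM). Median UMIs per cell of the class were 11075 to 17235.5 in control and 9470.5 to 11752.5 in nicotine mice.

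Within the finer early cluster (95 to 114 cells per mouse) edgeR called none of 66 members and none of 10583 genes. There, 3 members had an unadjusted p under 0.05, 33 had a log2 change below 0, and the median change was -0.0037. Dnaic2 stood there at 8.57 ± 2.13 CPM in control and 11.5 ± 4.16 CPM in nicotine mice (SD, n = 3), on 13 to 22 UMIs per mouse. Tekt4 stood at 25.8 ± 3.34 and 38.9 ± 13.4 CPM. The ratio of CPM in late spermatocyte-like class 2 to the early class had a median of 1.95 (1.26 to 5.75) for the 9 genes and 1.04 (0.217 to 14.8) for the other 57 tested, of which 29 were over 1. The part of the makeup in the 9 differences was not tested.

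**Figure D5:**
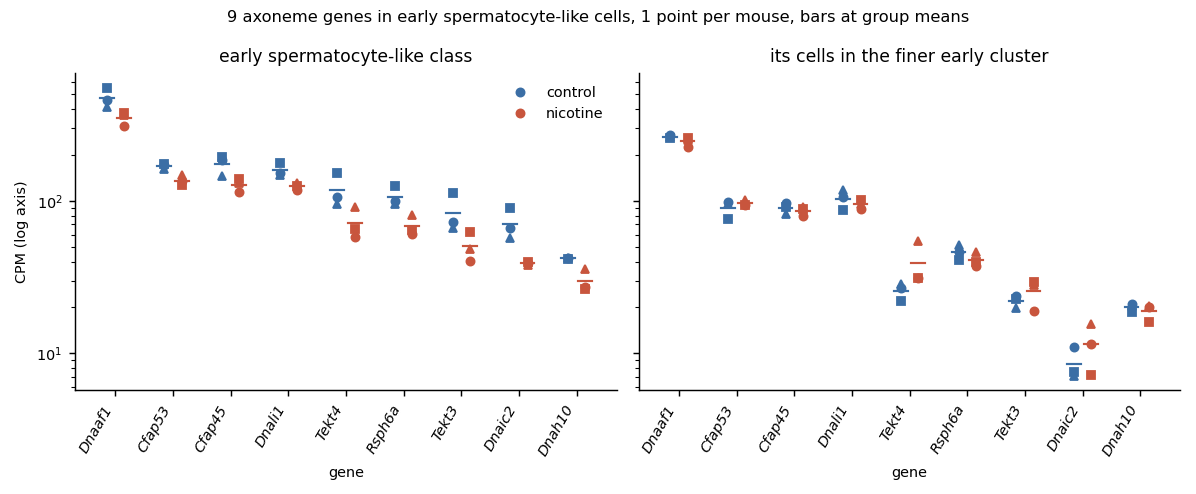
CPM (log axis) of the 9 members called lower after nicotine, 1 point per mouse with bars at group means, in the early spermatocyte-like class (left) and in the finer early cluster (right). The groups are apart for every gene on the left, and Dnaic2 and Tekt4 have higher nicotine than control means on the right.

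Of 75 genes of the other lists tested in the early spermatocyte-like class, 3 were lower and none was higher. The share called lower is below the 5.46% of all genes called lower there, and 177 of all 11610 genes were called higher. The median log2 change over the 75 was -0.20. They include 9 transcription regulators (median 0.06, 0 called) and 15 intraflagellar transport genes (median -0.06, 0 called). Dynlrb2, a dynein light chain, changed by -0.45 ± 0.11 (SE; edgeR adjusted p 0.0301). Ttc25, an outer arm docking protein, changed by -0.45 ± 0.12 (edgeR adjusted p 0.0372), and Nme8 by -0.82 ± 0.20 (edgeR adjusted p 0.0297).

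No member was called in the other 11 classes tested, by edgeR or by DESeq2. In late spermatocyte-like class 1, 0 of 66 were called (0.124% of all genes), with 1 at an unadjusted p under 0.05. In late class 2, 0 of 69 were called (0.725% of all genes), with 8 at an unadjusted p under 0.05. The smallest adjusted p there was that of Tekt2 (log2 change 0.26 ± 0.07 SE, edgeR adjusted p 0.0934). In round spermatid-like classes 1 to 3, 0 of 70, 70 and 68 were called, with 1, 0 and 0 at an unadjusted p under 0.05. In elongating classes 1 to 3, 0 of 64, 67 and 61 were called, with 3, 4 and 9 at an unadjusted p under 0.05. In Sertoli-like cells 0 of 59 were called (0.175% of all genes), with 6 at an unadjusted p under 0.05. The smallest adjusted p was that of Cfap97d1 (log2 change -0.70 ± 0.21 SE, edgeR adjusted p 0.209). In Leydig-like and stromal-like cells 0 of 28 and 31 were called, with 2 in each at an unadjusted p under 0.05. The share of all genes called was 0% in the round spermatid-like, elongating, Leydig-like and stromal-like classes. For the unadjusted p under 0.05, no share of all genes is given for any class or pair of classes. Those counts are therefore not read as a result about the members. Macrophage-like cells were not tested, since nicotine replicate 1 had 18.

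Whether the effect differed between stages was tested for 2 pairs of classes, with the mouse as a block in edgeR. Between round spermatid-like class 2 and elongating class 2 it differed for 0 of 70 members (0.101% of all genes), with 4 at an unadjusted p under 0.05. Between the early spermatocyte-like class and late class 1, a test added after the calls were seen, it differed for 15 of 68 members (8.72% of all genes). With the finer early cluster in place of the class it differed for 0 of 68, with 3 at an unadjusted p under 0.05.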

How the data were processed

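The values the authors deposited are unnormalized UMI counts for each barcode, from Cell Ranger 7.2.0 and GRCm38 (mm10), per the submitters' processing notes; intronic counting, use of strand and barcode selection are not given in the sources used here. Barcodes below 500 UMIs or 250 genes, or with 20% or more mitochondrial counts, were dropped, and the cells of highest Scrublet score were removed at 0.8% per 1000 cells (8.62% to 9.76% per library). Cells were clustered in scanpy 1.11.5 (2000 variable genes, 30 components, Leiden resolution 1) without axoneme genes and named from markers, by a naming rule refined after the clusters were seen. Each class was summed within a mouse, and the sums were tested in R 4.3.3 with edgeR 4.0.16 (robust quasi-likelihood, TMM, filterByExpr), and with DESeq2 1.42.0 as an alternative. Replicates are mice. Some tests were also run on simulated data. No outcome of these runs is given here, so they carry no weight for the calls in early spermatocyte-like cells. Gene positions are from the GENCODE annotation of GRCm38, and promoters from RefSeq.

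Members and lists were chosen with earlier results of these data known. Genes are named by role and level (up to 4 per role), earliest and latest onset, most and least fall, highest somatic to germ ratio, and calls after nicotine; regulators are named as background. With 3 mice per group, p-values set a group difference against the spread between these mice only. In edgeR the estimate of that spread also draws on the other genes tested. Other settings tried were scaling, filters, doublets, cell filters, finer clusters, a replicate block and leaving out each mouse.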

Additional observations from a re-analysis of the deposited data

Results flagged for a closer look

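The nicotine effect differed between the early spermatocyte-like class and late spermatocyte-like class 1 for 15 of 68 members. The edgeR test of that difference (adjusted p under 0.05) was added after the data were seen. It also called 1048 of all 12018 genes tested (8.72%), so the difference was not particular to the members. The difference of the log2 changes, late class 1 minus early class, was positive for each of the 15 members: Tekt4 (0.87), Dnaaf1 (0.55), Dnaic2 (0.90), Rsph6a (0.68), Tekt3 (0.82), Cfap298 (0.47), Cfap45 (0.57), Tekt2 (0.74), and further Cfap53 (0.53), Tekt1 (0.49), Cfap97 (0.43), Cfap52 (0.51), Cfap36 (0.35), Dnah10 (0.56) and Cfap161 (0.49). With the finer early cluster in place of the early class, 0 of 68 members differed. The early class held fewer cells that finer clustering calls late spermatocyte-like in nicotine mice, as given in the report.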

How the results depend on the processing

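The 9 members called in early spermatocyte-like cells became 17 with no filter on low counts, 17 with a replicate block and 0 with finer clusters, and ranged from 0 (without nicotine replicate 1) to 21 (without control replicate 3) when each mouse was left out. Over all classes the count became 17 with no filter, 19 with a replicate block (2 of them in Sertoli-like cells) and 0 with finer clusters, and ranged from 0 to 22 when each mouse was left out; in late spermatocyte-like class 2 that range was 0 to 1. With finer clusters 4 of the 9 changed sign, Tekt3 (0.21), Dnaic2 (0.38), Tekt4 (0.56) and Cfap53 (0.10), and the other 5 were no longer called. The difference between the early and first late spermatocyte-like class, called for 15 members, was called for 0 with the finer early cluster and for 9 to 18 when each mouse was left out. The median of the last over the highest stage, 0.0942 in CPM, was 0.0676 with finer clusters and 0.0273 in UMIs per cell. The 52 members on in the first stage became 18 with finer clusters and 25 at 50% of the highest class. Where no cause is given by the construction of a setting, the cause was not tested. Replicate numbers were not taken to pair the mice: in none of 12 classes did every same-numbered pair correlate above 0.1 (range -0.146 to 0.286), although the mice numbered 2, whose libraries stood apart in both groups, correlated at 0.281 in the early spermatocyte-like class and up to 0.286. Depth limits the last elongating class and the somatic classes, which hold few UMIs per cell of most members.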

Other observations

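The share of UMIs that fell on members was higher in every nicotine mouse than in every control mouse in 4 classes. It was 0.269% to 0.286% in control and 0.293% to 0.306% in nicotine mice in elongating spermatid-like class 2 and 0.320% to 0.332% in control and 0.350% to 0.385% in nicotine mice in class 3. It was 0.952% to 1.05% in control and 1.07% to 1.13% in nicotine mice in Sertoli-like cells and 0.556% to 0.568% in control and 0.631% to 0.677% in nicotine mice in stromal-like cells. Member UMIs per cell overlapped between the groups in all 4 classes. For example, the control and nicotine means were 16.7 and 16.2 in the last elongating class, and 11.6 and 12.2 in stromal-like cells. These values were chosen after they were seen, and no test was made of them.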
